A study of Mus musculus with 2 samples.

Results

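Solute carriers are the membrane proteins that carry small molecules and ions across the plasma membrane and the membranes of organelles without splitting ATP themselves. They were taken here as the probe sets annotated to a single symbol made of Slc, a family number, the letter a and a member number, or beginning with Slco. The symbols Slc7a2, Slc6a8, Slc11a1 and Slc40a1 were left out, of which 3 had a probe set annotated to a single symbol. This rule uses no measured value and gave 161 probe sets of 136 genes, out of 12654 probe sets on the array and 10276 with 1 gene symbol, which stand for 8220 genes.

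The families are named for what they move. Amino acid exchangers such as Slc7a5 and Slc7a11 work as pairs with the glycoprotein CD98 (Slc3a2), Slc2 proteins let glucose pass down its gradient, and Slc25 proteins carry metabolites across the inner mitochondrial membrane. Zinc is moved into the cytosol by Slc39 proteins (ZIP) and out of it, to organelles or the outside, by Slc30 proteins (ZnT). In macrophages these transporters supply cystine for glutathione, arginine and glutamine for activated metabolism, and glucose for glycolysis, and they set the supply of zinc, copper and iron, which phagocytes move when they face microbes.

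The samples were peritoneal macrophages of Pac1-/- mice and of age-matched Pac1+/+ littermates, labelled wild type. Pac1 is an older name of Dusp2, a phosphatase of MAP kinases. Both groups carried the same treatments: 2 ml of 3% thioglycollate in the peritoneum 4 days earlier, purification by 2 hours of adherence, and 100 ng/ml lipopolysaccharide (LPS) for 6 hours. There was 1 Affymetrix array per genotype. The strain, the deleted part of the gene, the age and sex of the mice and the number of mice behind an array have no statement in the labels, and unstimulated cells were not analysed here. Differences below therefore carry no replicate error and were not tested, and they are given as sizes.

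Values are MAS5 signals in arbitrary units, computed for each probe set. Signals under a floor of 36.4, the overall median of the 2 arrays, were raised to it, and each log2 ratio then divides knockout by wild type. A probe set counted as measured where at least 1 array was above the floor, and where only 1 array was above it the fold is a lower bound and is written as "at least". Signals of different probe sets depend on their probes and are not compared with each other. Dusp2 itself, the targeted gene, was at 76.8 in the knockout against 333 in the wild type, and whether its probes lie in the deleted part is not given. The labels put cells positive for Mac-1 at 92 to 95%. All 8 macrophage markers examined (Itgam, Cd68, Csf1r, Adgre1, Lyz2, Cd14, Fcgr1 and Msr1) were above the floor on both arrays. Their summed signal was 25877 for the knockout and 22870 for the wild type, with a median log2 ratio of 0.24. Msr1 was lower, at 1366 against 2171 (−0.67), and the other listed markers had ratios above 0. Among markers of other cells, Cd3e, Cd3d, Cd3g, Cd8a, Ly6g, Ngp, Ltf, Epx, Cpa3, Mcpt4, Epb42, Msln and Krt19 were below the floor on both arrays. Others were above it on at least 1 array, and their ratios went both ways. Prg2 was at 100 against 16, Cd79a at 100 against 20.7 and Tpsb2 at 192 against 116. In the other direction, Cd4 was at 32.8 against 74.5, Ms4a1 at 52.2 against 87.4, Hba-a1 at 12.8 against 78.0 and Acta2 at 52.2 against 133. The sums below add unlike probe sets and signals under the floor, so they can hide such opposite moves. The summed signals, knockout first, were 834 and 897 for 7 neutrophil markers, 432 and 377 for 4 B cell markers, 77.0 and 111 for 5 T and NK cell markers, 102 and 16.8 for 2 eosinophil markers, 814 and 899 for 5 mast cell and basophil markers, 58.5 and 91.8 for 3 erythroid markers, and 731 and 956 for 6 stromal and mesothelial markers. The part of these shifts in the results below was not tested, and in such bulk RNA fewer cells of a type and less RNA per cell cannot be told apart.

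Of the 161 solute carrier probe sets, 77 (47.8%) were above the floor on at least 1 array, 65 of them on both, against 57.4% of all annotated probe sets. The 77 stood for 69 genes, and 67 genes had no probe set above the floor. The median log2 ratio of the measured transporters was 0.01, with 43 above 0 and 34 below, beside 0.02 over all 5898 measured probe sets, of which 3087 (52.3%) were above 0. Of the 77, 46 (59.7%) lay under 1.2-fold apart, beside 57.6% of all measured probe sets. One member was 2-fold or more higher in the knockout, a probe set of the taurine transporter gene Slc6a6, against a background of 1.2% of all measured probe sets. One was 2-fold or more lower, the zinc transporter gene Slc30a4, against a background of 1.09%. Together these 2 were 2.6% of the measured members, and 2.29% of all measured probe sets lay as far apart.

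At 1.5-fold or more, 10 of the 77 stood apart, beside a background of 12.4%. In the knockout 6 were higher (background 6.53%), namely Slc6a6, Slc6a13, Slc6a18, Slc6a2, Slc12a2 and Slc22a12, and 4 were lower (background 5.85%), namely Slc30a4, Slc6a9, Slc25a3 and Slc7a11. All 10 had signals under 300. Of the 34 members whose higher signal was at most 100, 7 were 1.5-fold apart, where 16.8% of all such probe sets were. Of the 24 members between 100 and 300, 3 were, where 13.3% of all were. Of the 19 members above 300, 0 were, where 4.74% of all were. Scaling both arrays to 1 common median moved the median ratio of all probe sets by −0.11, so ratios just above 0 in the text take the other sign under it. With such equal medians 29 members were above 0 and 48 below, and over all probe sets 49 were 2-fold higher and 101 lower, beside 71 and 64 in the values used here. At 1.5-fold, 4 members were then higher, without Slc6a2 and Slc12a2, and 4 lower.

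**Figure D1:**
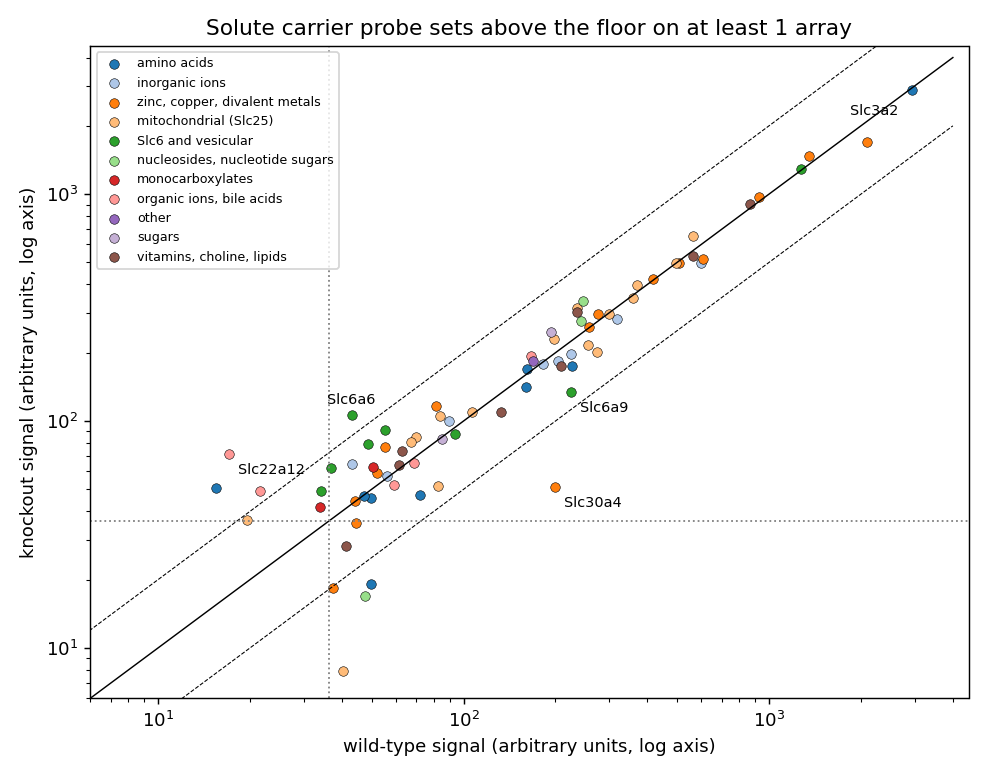
Knockout signal against wild-type signal for the 77 solute carrier probe sets above the floor on at least 1 array, on log axes and coloured by substrate class. The solid line marks equal signals, dashed lines 2-fold, and dotted lines the floor of 36.4, below which a position carries no order. Members above 300 lie along the solid line, and Slc30a4 is the point farthest below it among those above the floor on both arrays.

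The zinc, copper and divalent metal transporters held the largest difference. Slc30a4 encodes ZnT4, which moves zinc into intracellular vesicles. Its signal was 51.3 with the knockout and 199.7 with the wild type, 3.89-fold lower (log2 ratio −1.96). That was 25.7% of the wild-type signal. The other Slc30a4 probe set, whose suffix marks possible matches to related sequences, was at 16.8 and 18.5, below the floor on both arrays, so the difference rests on 1 probe set. It also depends on the floor, since with the floor raised to the 75th percentile (129.9) the knockout signal lay under it and the gene was at least 1.54-fold lower.

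The other measured probe sets of the Slc30 family had ratios above 0. Slc30a1 encodes ZnT1, the zinc exporter of the plasma membrane, and was at 116 against 81.4 (log2 ratio 0.51, 1.43-fold). Slc30a5, which loads zinc into the Golgi, was at 76.7 against 55.4 (0.47) on one probe set and at 44.3 against 44.1 (0.01) on another. Slc30a9 was at 59.0 against 52.1 (0.18) and Slc30a3, a transporter into vesicles, at 295 against 277 (0.09). In all, 5 of 6 measured Slc30 probe sets were above 0, beside 52.3% of all measured probe sets, and 2 of the 5 belong to Slc30a5. At equal array medians, Slc30a3 and the second Slc30a5 probe set were below 0.

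Slc30a1 and the metallothionein genes are textbook targets of MTF-1, a zinc-sensing transcription factor that binds metal response elements. Mtf1 itself was at 64.2 against 63.1 (0.02). The metallothionein genes Mt1 and Mt2, which encode small proteins that bind zinc, were at 1058 against 857 (0.30) and at 5166 against 4066 (0.35). All 3 target genes had ratios above 0, beside 52.3% of all measured probe sets, and none of them reached 1.5-fold. Whether MTF-1 activity differed was not tested. Because the zinc exporters include the member farthest below 0 and one of the members nearest to 1.5-fold above it, their promoters are printed for comparison. They run 5′ to 3′ from 250 bases before the start of transcription to 50 after it, from RefSeq on build GRCm38.p6, with capitals for matches to the core of the metal response element, searched as TGCACNC and TGCGCNC on both strands. The Slc30a1 window is chr1:191906531-191906830 on the plus strand, and the Slc30a4 window is chr2:122702614-122702913 on the minus strand.
Slc30a1: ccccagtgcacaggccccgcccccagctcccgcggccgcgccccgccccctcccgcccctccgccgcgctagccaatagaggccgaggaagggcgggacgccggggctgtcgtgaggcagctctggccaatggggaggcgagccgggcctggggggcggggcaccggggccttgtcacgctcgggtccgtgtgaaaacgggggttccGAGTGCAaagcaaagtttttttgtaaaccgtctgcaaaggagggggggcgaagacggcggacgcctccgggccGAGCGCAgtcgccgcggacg
Slc30a4: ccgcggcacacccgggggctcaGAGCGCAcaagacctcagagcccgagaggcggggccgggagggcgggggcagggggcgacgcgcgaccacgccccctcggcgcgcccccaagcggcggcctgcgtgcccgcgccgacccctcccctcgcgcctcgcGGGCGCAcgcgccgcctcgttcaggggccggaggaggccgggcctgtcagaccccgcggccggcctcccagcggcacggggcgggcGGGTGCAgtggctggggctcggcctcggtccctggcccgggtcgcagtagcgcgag

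The Slc30a1 window held 1 match to TGCACNC, 43 bases before the start, and 1 to TGCGCNC, 31 bases after it. The Slc30a4 window held 1 match to TGCACNC, 6 bases before the start, and 2 to TGCGCNC, 228 and 92 bases before it. All 5 matches lay on the strand opposite to the gene, so the printed letters are the reverse complement of the motif. Such short motifs are common. TGCACNC was in 12.6% and TGCGCNC in 15.4% of the 32851 promoters in the table, which covered 109 of the 136 member genes. Of the 158 promoters of those genes, 12.7% held TGCACNC and 22.8% TGCGCNC. A match is a description of the letters and not of binding.

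Importers of zinc were closer to equal than Slc30a4. Slc39a1, which encodes the plasma membrane importer ZIP1, was at 1479 against 1352 (0.13). Slc39a7, which encodes ZIP7 of the endoplasmic reticulum, was at 518 against 607 (−0.23), and Slc39a6 was at 260.2 against 258 (0.02). Slc39a9 was at 35.4 against 44.3, at least 1.22-fold lower, and Slc39a4, the intestinal importer, was at 18.3 against 37.3, at least 1.02-fold lower. In all, 2 of 5 measured importer probe sets were above 0, beside 52.3% of all measured probe sets, and none of the 5 was 1.5-fold apart. Slc39a8, the importer ZIP8 that is known to respond to inflammation, was below the floor on both arrays, as were Slc39a3, the second probe set of Slc39a1 and the second of Slc39a4.

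The other metals showed small differences. Slc31a1, the copper importer CTR1, was at 1697 against 2091 (−0.30) on one probe set and at 422 against 419 (0.01) on the other. Slc11a2, which encodes the divalent metal transporter DMT1 that carries iron, was at 976 against 925 (0.08) and at 496 against 506 (−0.03) on its 2 probe sets. The 15 measured probe sets of the metal group had a median log2 ratio of 0.01, which was −0.10 at equal array medians, and 1 of them was 2-fold apart. Slc41a1, a magnesium transporter, was below the floor.

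**Figure D2:**
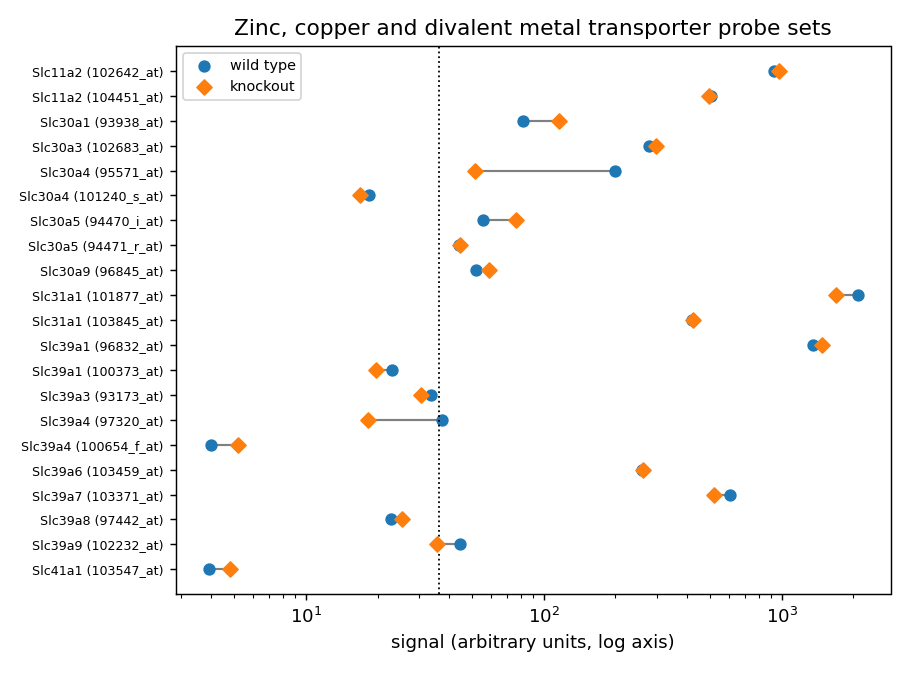
Signals of all 21 probe sets of zinc, copper and divalent metal transporters, in arbitrary units on a log axis, with a circle for the wild-type array, a diamond for the knockout array and a dotted line at the floor of 36.4. Slc30a4 has the widest gap above the floor (51.3 against 199.7), while its second probe set lies below the floor with both symbols close together.

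The Slc6 family carries neurotransmitters, amino acids and osmolytes together with sodium and chloride. Of its 8 measured probe sets, 5 were 1.5-fold apart, beside 12.4% of all measured probe sets. That share was 16.8% where the higher signal was at most 100 and 13.3% between 100 and 300. In the knockout 4 of the 8 were 1.5-fold higher, beside 6.53% of all measured probe sets. Slc6a6 takes up taurine, an abundant solute of leukocytes, and is measured by 2 probe sets that gave different answers. One was at 107 against 43.2 (log2 ratio 1.30, 2.47-fold higher), and the other was at 1287 against 1277 (0.01). This gap of 1.29 on the log2 scale was the largest among the 7 genes with several measured probe sets, whose median gap was 0.31. With 1 probe set per gene, chosen by the higher mean signal, Slc6a6 was within 1.01-fold and 0 members were 2-fold higher.

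Slc6a9 encodes the glycine transporter GLYT1. Its signal was 134 against 224, 1.68-fold lower (−0.74), the lowest ratio of this family. Slc6a13, a transporter of GABA and taurine, was at 91.5 against 55.5 (0.72, 1.65-fold higher). Slc6a18, known as a neutral amino acid transporter of the kidney, was at 62.1 against 36.9 (0.75, 1.68-fold higher). Slc6a2, the noradrenaline transporter, was at 79.0 against 48.8 (0.69, 1.62-fold higher), and its second probe set was below the floor. These 3 wild-type signals lay between 36.9 and 55.5, close to the floor of 36.4.

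Slc6a12, which carries betaine and GABA, was at 87.5 against 94.0 (−0.10). Slc6a4, the serotonin transporter, which mast cells and platelets also use, was at 49.0 against 34.2, at least 1.35-fold higher. The median ratio over the 8 measured probe sets of the group was 0.56, or 0.47 at equal array medians and 0.52 after quantile normalization. Of the 8, 6 were above 0, beside 52.3% of all measured probe sets. With the floor raised to the 75th percentile, 2 of them were left, Slc6a6 and Slc6a9, and the median was −0.37. Slc6a3, Slc6a15 and the vesicular transporters Slc18a3 and Slc32a1, which are neuronal genes, were below the floor on both arrays.

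Amino acid transporters had 7 of 9 measured probe sets below 0, beside 2811 of all 5898 measured probe sets. Of the 9, 2 were above the floor on only 1 array. Their median ratio was −0.13. It stayed below 0 at equal array medians (−0.25) and after quantile normalization (−0.17) but was 0.03 with the floor lowered to the 25th percentile. None was 2-fold apart. Slc3a2, the CD98 heavy chain shared by several exchangers, was at 2881 against 2931 (−0.03). Its measured light chains had ratios farther from 0 in the values used here, an order that depends on the scaling. Slc7a11, the light chain xCT that brings in cystine in exchange for glutamate, was at 47.4 against 71.8 (−0.60, 1.51-fold lower). Slc7a5, the light chain LAT1 for large neutral amino acids, was at 175 against 227 (−0.37, 1.29-fold lower). Slc7a8 was at 141 against 160.2 (−0.19), and Slc7a7, which exports cationic amino acids, was at 170.1 against 161 (0.08).

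Slc7a11 is a textbook target of ATF4, a transcription factor of amino acid shortage. The RefSeq promoter of Slc7a11, at chr3:50443564-50443863 on the minus strand of GRCm38.p6, is printed because its gene had the lowest ratio of the amino acid group. Capitals mark the motif TGATGCAA, a form of the amino acid response element, searched on both strands over the same 250 bases before and 50 after the start.
Slc7a11: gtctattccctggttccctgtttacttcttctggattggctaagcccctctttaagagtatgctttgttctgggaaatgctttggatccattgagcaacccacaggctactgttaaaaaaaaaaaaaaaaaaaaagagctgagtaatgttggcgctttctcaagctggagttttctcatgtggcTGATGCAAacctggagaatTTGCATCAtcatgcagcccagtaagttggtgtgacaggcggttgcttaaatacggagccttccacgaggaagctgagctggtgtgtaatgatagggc

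The motif occurred there on each strand, 66 and 47 bases before the start. It was in 0.895% of the 32851 promoters and in 6 (3.80%) of the 158 promoters of member genes, a difference that was not tested. Those 6 belonged to 5 genes, which besides Slc7a11 were Slc17a1, Slc1a4, Slc50a1 and Slc7a7. Slc7a11 was 1.51-fold lower, Slc7a7 and Slc50a1 were within 1.2-fold, Slc1a4 was at least 1.39-fold higher and Slc17a1 was below the floor. Atf4 was at 1365 against 1526 (−0.16). Asns, the asparagine synthetase gene, was at 413 against 661 (−0.68, 1.60-fold lower). Ddit3, which encodes the stress factor CHOP, was at 72.9 against 42.8 (0.77, 1.70-fold higher). Of other regulators and partners examined, Trib3 and Gclm were below the floor on both arrays. Nfe2l2 was at 859 against 853 (0.01) and Gclc at 82.9 against 78.6 (0.08).

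The remaining amino acid transporters were near the floor. Slc1a5, the glutamine transporter ASCT2, was at 45.6 against 49.8 (−0.13), and Slc38a2, the neutral amino acid transporter SNAT2, was at 46.9 against 47.2 (−0.01). Slc1a4, which carries alanine, serine and cysteine, had a knockout signal of 50.5 and a wild-type signal of 15.5. Slc3a1, the partner of the renal cystine transporter, was at 19.1 against 49.9, at least 1.37-fold lower. Another 11 genes of the group were below the floor on both arrays: Slc1a1, Slc1a2, Slc1a6, Slc7a1, Slc7a3, Slc7a6, Slc7a9, Slc15a2, Slc38a4, Slc38a5 and Slc38a10.

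**Figure D3:**
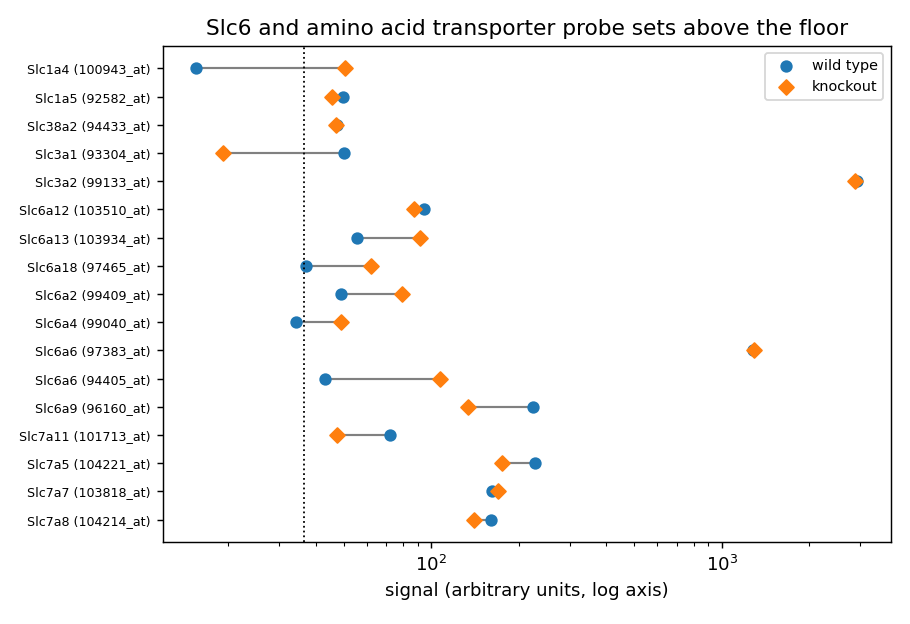
Signals of the 8 Slc6 and 9 amino acid transporter probe sets above the floor on at least 1 array, in arbitrary units on a log axis, with circles for wild type, diamonds for knockout and a dotted line at the floor. The 2 Slc6a6 probe sets differ, at 107 against 43.2 and 1287 against 1277, and most of the wide gaps lie at signals under 100.

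Sugar transporters were mostly below the floor, with 2 of 11 probe sets measured. Slc2a1 encodes GLUT1, the main glucose transporter of activated macrophages, and was at 248 against 194 (0.36, 1.28-fold higher). Slc2a8, an intracellular hexose transporter, was at 83.1 against 85.0 (−0.03), with its second probe set below the floor. Both probe sets of Slc2a3, the glucose transporter GLUT3, were below the floor, as were Slc2a2, Slc2a4, Slc2a5, Slc5a1, Slc5a11 and Slc37a4. Hk1 and Hk2, the hexokinase genes that act on the imported glucose, were at 393 against 378 (0.06) and 1140.3 against 1410.3 (−0.31). Slc50a1, a sugar transporter of the SWEET family that was kept outside this group, was at 184 against 169 (0.13), and Slc66a2 was below the floor.

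The mitochondrial carriers were the family with most measured probe sets, 16 of 22, and none was 2-fold apart. Their median ratio was 0.02 (−0.09 at equal array medians), with 10 above 0, beside 52.3% of all measured probe sets, and 6 below. Slc25a4 and Slc25a5 encode exchangers of ADP and ATP. Slc25a4 was at 652 against 563 (0.21). Slc25a5 was at 316 against 235 (0.43) and 80.7 against 67.1 (0.27) on 2 probe sets whose suffixes mark possible matches to related sequences, and on the remaining one it was at 7.9 against 40.2, at least 1.10-fold lower.

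Slc25a3, which brings in the phosphate used to make ATP, had the lowest ratio of the family, at 51.9 against 82.6 (−0.67, 1.59-fold lower). Slc25a25, a carrier of ATP-Mg and phosphate, was at 201 against 275 (−0.45), and Slc25a51, the NAD carrier, was at 217 against 255 (−0.23). In the other direction, Slc25a15, which carries ornithine for the urea cycle, was at 105 against 83.5 (0.34), and Slc25a20, which carries acylcarnitines for fat oxidation, was at 230.1 against 197 (0.22). The citrate carrier Slc25a1, which exports the citrate used for lipid synthesis and is linked to inflammatory mediators in macrophages, was at 399 against 371 (0.10) and at 84.7 against 69.9 (0.28). Both of its probe sets were above 0 and under 1.5-fold.

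The rest of the family was near equality. Slc25a39, a glutathione carrier, was at 498 against 496 (0.01), and Slc25a28, the iron carrier mitoferrin-2, was at 297 against 299.9 (−0.01). Slc25a10, for dicarboxylates, was at 109 against 107 (0.03), and Slc25a17, a carrier of peroxisomes despite its family, was at 348 against 358 (−0.04). Slc25a44, for branched-chain amino acids, was at 36.7 against 19.6, at least 1.01-fold higher. Slc25a11, Slc25a14, Slc25a36, Slc25a47, Slc25a48 and Slc25a53 were below the floor on both arrays.

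**Figure D4:**
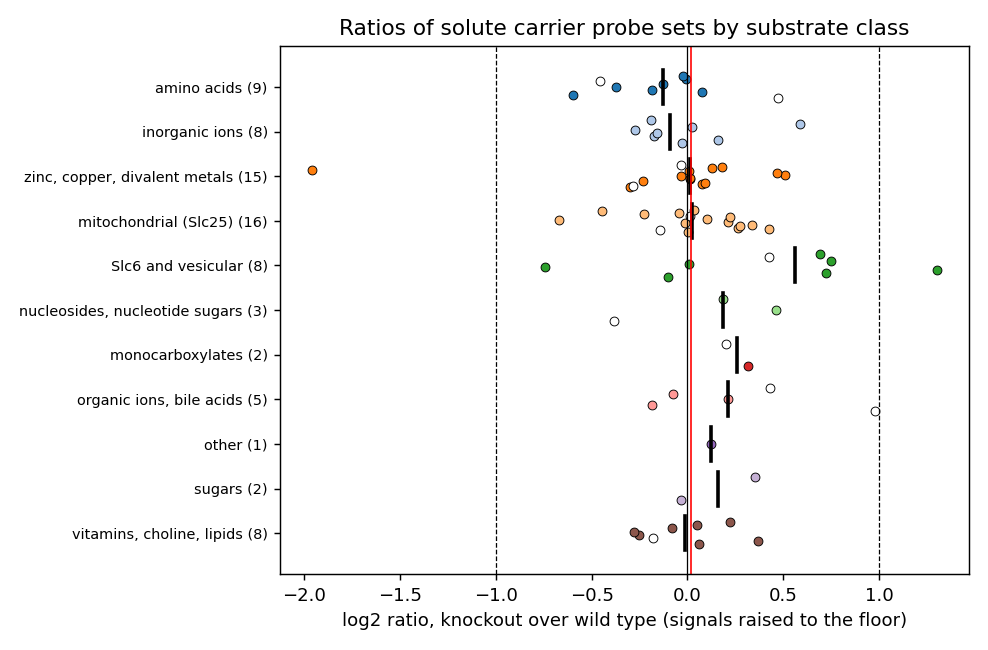
Log2 ratio of knockout over wild type for each measured solute carrier probe set, by substrate class, with the number of probe sets in parentheses. Filled points were above the floor on both arrays and open points on 1, heavy bars are class medians, the red line is the median of all annotated probe sets (0.02), and dashed lines mark 2-fold. The 8 points of the Slc6 and vesicular class have a median of 0.56, and the metal class holds the single point near −2.

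Inorganic ion transporters had 5 of 8 measured probe sets below 0, beside 2811 of all 5898 measured probe sets. Their median was −0.09 (−0.21 at equal array medians), and none was 2-fold apart. Slc12a4, a potassium-chloride cotransporter that sets cell volume, was at 497 against 601 (−0.28). Its relative Slc12a7 was at 184 against 205 (−0.16). Slc12a2, the sodium-potassium-chloride cotransporter NKCC1 that moves chloride the opposite way, was at 64.9 against 43.1 (0.59, 1.51-fold higher).

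Transporters that set pH and calcium were near equality. Slc9a8, a sodium-proton exchanger of the Golgi, was at 281 against 318 (−0.17), and Slc8a1, the sodium-calcium exchanger, was at 197 against 225 (−0.19). The bicarbonate exchangers Slc4a2 and Slc4a3 were at 179 against 182 (−0.03) and 57.2 against 56.3 (0.02), and the phosphate importer Slc20a1 was at 99.9 against 89.4 (0.16). Slc4a1, the band 3 exchanger of red blood cells, was below the floor on both arrays. So were Slc4a4, Slc4a5, Slc4a8, Slc12a1, Slc12a3, Slc12a5, Slc17a1, Slc26a1, Slc26a2, Slc34a1 and Slc34a2, many of them kidney or neuronal transporters, and the other 2 probe sets of Slc8a1.

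Among transporters of vitamins, choline and lipids, 8 of 17 probe sets were measured, with 4 above 0, 4 below and none 1.5-fold apart. Slc23a2 takes up ascorbate and was at 905 against 869 (0.06). The choline transporter genes Slc44a1, Slc44a2 and Slc44a4 were at 534 against 565 (−0.08), 73.5 against 63.1 (0.22) and 109 against 133 (−0.28). Slc27a1, which brings in and activates fatty acids, was at 303 against 235 (0.37). Slc48a1, which moves haem out of the phagolysosome after red cells are eaten, was at 175 against 209 (−0.25). Slc23a3 was at 64.0 against 61.7 (0.05), and Slc19a1, the folate carrier, was below the floor in the knockout and at 41.2 in the wild type, at least 1.13-fold lower. Slc5a6, Slc23a1, Slc27a2, Slc27a3, Slc27a4, Slc27a5 and Slc46a1 were below the floor.

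The equilibrative nucleoside transporter gene Slc29a1 was measured by 2 probe sets that pointed the same way, at 338 against 245 (0.46, 1.38-fold higher) and at 275 against 242 (0.19). Slc35a2, which brings UDP-galactose into the Golgi, was at 16.9 against 47.5, at least 1.30-fold lower. Slc29a2, Slc35a1 and Slc35a4 were below the floor. Of the monocarboxylate transporters, Slc16a8 was at 62.8 against 50.4 (0.32) and Slc16a7, a pyruvate and lactate transporter, was at 41.9 against 33.8, at least 1.15-fold higher. Slc16a1, which encodes the lactate transporter MCT1, was below the floor, while Bsg, its chaperone at the membrane, was at 674.5 against 674.4 (0.00).

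Organic ion and bile acid transporters had the fewest measured members for their number after the sugar group, 5 of 19 probe sets. Slc22a12, the urate exchanger known from the kidney, was at 71.7 against 17.1, at least 1.97-fold higher. Slc22a17, a receptor for the iron-binding lipocalin-2, was at 49.1 against 21.6, at least 1.35-fold higher. Slc22a18 was at 52.0 against 59.0 (−0.18). Slc10a3 and Slc10a6, of the bile acid family, were at 193 against 166 (0.21) and 65.6 against 69.0 (−0.07). The other 12 genes were below the floor on both arrays: Slc10a1, Slc10a2, Slc22a2, Slc22a4, Slc22a5, Slc22a6, Slc22a21, Slc22a23, Slc22a30, Slco3a1, Slco5a1 and Slco6c1.

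Repeat measurements of a gene show how far probe sets can part within the same pair of arrays. Of the 136 genes, 22 had several probe sets. In 7 of these at least 2 were measured, in 9 some were measured and some below the floor, and in 6 all were below it. The gap between the highest and lowest log2 ratio of a gene was 0.11 for Slc11a2, 0.17 for Slc25a1, 0.28 for Slc29a1, 0.31 for Slc31a1, 0.46 for Slc30a5, 0.57 for Slc25a5 and 1.29 for Slc6a6. Ratios of opposite sign occurred in 3 of the 7 (Slc11a2, Slc25a5 and Slc31a1), but at equal array medians in 4 (Slc25a1, Slc25a5, Slc30a5 and Slc6a6), so the sign depends on the scaling.

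Other gene lists, mainly of membrane transport, were counted against the same backgrounds of 2.29% at 2-fold and 12.4% at 1.5-fold. The genes named at 1.5-fold were chosen after their values were seen. Genes of the ABC families, not all of which encode transporters, had 18 of 28 probe sets measured, 0 of them 2-fold apart. Their median ratio was 0.07, which was −0.05 at equal array medians. At 1.5-fold 1 stood apart, Abcb9, at 56.5 against 35.9, at least 1.55-fold higher. P-type ATPases and their subunits, not all of them ion pumps, had 11 of 24 measured, 0 of them 2-fold apart. Their median was 0.19, or 0.07 at equal medians. Of the 11, 10 were above 0, beside 52.3% of all measured probe sets, and 7 were above 0 at equal medians. At 1.5-fold 1 stood apart, a probe set of Atp13a3 at 129 against 194 (−0.59, 1.51-fold lower). The other Atp13a3 probe set was at 111 against 108 (0.03). Among the P-type ATPase probe sets, Atp1b3, a subunit of the sodium pump whose gradient drives many solute carriers, was at 7675 against 6847 (0.16). Ion channels had 26 of 87 measured, 0 of them 2-fold apart, and a median of 0.01, which was −0.09 at equal medians. At 1.5-fold 4 of the 26 stood apart. Kcnj4 was 1.62-fold higher, Clcn1 at least 1.55-fold and Kcnn1 at least 1.84-fold higher, and Kcnh2 at least 1.84-fold lower. The partners and regulators of solute carriers, such as Bsg, Atf4, Mtf1 and the metallothioneins, had 19 of 23 measured, 0 of them 2-fold apart, and a median of 0.01, which was −0.11 at equal medians. At 1.5-fold, 2 of the 19 stood apart, with Asns lower and Ddit3 higher.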

How the data were processed

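RNA of 2 macrophage preparations, 1 per genotype, was hybridised to 1 array each. Per the submitters' processing notes, the authors computed 1 MAS5 intensity per probe set; no version or settings are named. Deposited values were linear, with 0 below 0, and the 2% trimmed means of both arrays were equal, so rescaling to that mean hardly altered them. The intensity of a 3′-primed probe set has no known detection limit here, and a floor at the median of all signals took the place of detection calls. This array generation held some probe sets against the wrong strand, which were not identified here, so a signal below the floor does not show that a gene was silent. Precision is limited by the number of arrays.

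Names came from the platform's annotation: 10276 had 1 symbol (control probe sets left out), 363 several and 1993 none, and a reference gene table (GRCm38.p6) altered 0 symbols. Measured probe sets were counted at 2-fold and 1.5-fold, beside the same count over all annotated probe sets. Classes followed the families' substrates. Members were given by class, with both signals where measured on both arrays and with the bound where on 1. The members, classes and lists were chosen with earlier results of these data known. Ratios were computed with Python 3.11.15, numpy 2.4.6 and pandas 2.3.3, and the code was tested on simulated data. Alternatives covered scaling, floor, probe set choice and membership rule. The annotation names 1 more probe set whose field holds several symbols, at least 1 of them of the solute carrier form, and it was left out.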

Additional observations from a re-analysis of the deposited data

How the results depend on the processing

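With 1 array per genotype no replicate could be left out, and no paired analysis was possible because each genotype has a single array. Across 24 results and 9 alternatives, 158 values stayed near the one given (log2 values within 0.1, counts within 1.5 times) and 49 moved further, some class medians across 0. The 10 members that were 1.5-fold apart kept their sign wherever they were measured. They were picked for their size, and scaling moved ratios by much less than 1.5-fold, so this outcome was nearly fixed beforehand. At the 75th percentile floor, only the probe sets of Slc30a4 and Slc6a9 among them were still measured. With 1 probe set per gene, the Slc6a6 probe set dropped out. Members not measured gave no value. The 158 include the values as deposited, which were nearly equal to those used. The cause of the moves was not tested.

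The floor mattered most. At the 25th percentile, 13 members were 2-fold higher and 12 lower, 22 and 18 at 1.5-fold, while 12.2% of all probe sets were 2-fold apart; with no floor the counts were 24, 15, 37 and 25 and the share 20.6%. At the 75th percentile they were 0, 0, 0 and 2 and the share 0.373%, and Slc30a4, with its knockout signal then under the floor, had a bound of −0.62. The floor at the 25th percentile put class medians at 0.027 (amino acids), 0.26 (Slc6 and vesicular) and −0.34 (organic ions), and no floor at 0.065, 0.17 and −0.18, with 0.35 for inorganic ions, 0.16 for mitochondrial carriers and 0.17 for vitamins and lipids; the 75th percentile gave −0.37 for Slc6 and vesicular.

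Scaling to the same median gave −0.10 for the members, −0.10 for all probe sets, −0.25 for amino acids, −0.21 for inorganic ions, −0.10 for metals, −0.085 for mitochondrial carriers, 0.028 for organic ions and −0.13 for vitamins and lipids, and quantile normalization 0.082 for organic ions. With 1 probe set per gene, 0 members were 2-fold higher and the Slc6 and vesicular median was 0.43, as it was (0.43) with other solute carrier symbols included.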
